A study of Homo sapiens with 5 samples.

Results

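The genes described here are the ferritin chains FTH1 and FTL, the iron exporter SLC40A1, the transferrin receptor TFRC, the iron transporter SLC11A2, the iron regulatory proteins ACO1 and IREB2, the ferritin receptor NCOA4 and the heme oxygenase HMOX1. They were chosen by name as mRNAs controlled through iron responsive elements and their regulators, and all 9 of 9 were found among the 10504 genes of the deposited abundance table. The samples were HEK293A cells, a flat-growing subclone of HEK293 (a kidney-derived human cell line), transfected with siRNA against IRE1α (siIRE1a, 2 libraries) or with control siRNA (siCon, 2 libraries), plus 1 Ribo-seq library in which both groups were multiplexed. Both groups had been starved and then given fetal bovine serum, so no unstimulated group and no iron or chelator treatment was part of the design. IRE1α, the product of ERN1, senses unfolded protein in the endoplasmic reticulum, and its abbreviation is unrelated to the iron responsive element, which is written out below.

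Cells balance iron storage against iron uptake through a short RNA hairpin, the iron responsive element, that is bound by the iron regulatory proteins when iron is scarce. A hairpin in the 5′ UTR, as in ferritin and ferroportin mRNA, lets the bound protein block the start of translation. Hairpins in the 3′ UTR, as in transferrin receptor mRNA, let the bound protein protect the mRNA from decay. When iron is plentiful, ACO1 takes up an iron-sulfur cluster and becomes a cytosolic aconitase, and IREB2 is marked for degradation by the ubiquitin ligase subunit FBXL5.

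The hairpins are shown because they are the feature through which the storage, export and receptor mRNAs are known to be regulated. A script searched the UTRs of all protein-coding transcripts of GENCODE release 29 for an unpaired C, 5 bases, the loop CAGTGN and 5 bases that pair with the first 5 (Watson-Crick or G with U), on the transcript strand only. Of the 9 genes, 4 held such a match with all 5 pairs. Each sequence below is written 5′ to 3′ as DNA, with the 6 bases of the loop in capitals, and those of TFRC are lettered a to d along the mRNA.
FTH1: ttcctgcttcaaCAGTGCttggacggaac
FTL: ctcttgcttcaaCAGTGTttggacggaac
SLC40A1: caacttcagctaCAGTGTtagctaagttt
TFRC a: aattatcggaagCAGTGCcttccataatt
TFRC b: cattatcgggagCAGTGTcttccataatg
TFRC c: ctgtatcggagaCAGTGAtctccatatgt
TFRC d: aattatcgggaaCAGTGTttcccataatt
SLC11A2: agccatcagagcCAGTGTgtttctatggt

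On GRCh38 the FTH1 window lies at chr11:61967574-61967602 on the minus strand, the FTL window at chr19:48965335-48965363 on the plus strand and the SLC40A1 window at chr2:189580661-189580689 on the minus strand, all 3 in exons of the 5′ UTR. The FTH1 and FTL windows were identical at 26 of 29 bases. The 4 TFRC windows lie in the 3′ UTR on the minus strand of chromosome 3, at chr3:196050979-196051007, chr3:196050575-196050603, chr3:196050510-196050538 and chr3:196050463-196050491. The SLC11A2 window, in the 3′ UTR at chr12:50988269-50988297 on the minus strand, had 4 of the 5 pairs, and is shown as that of the second uptake gene. ACO1 and IREB2 each held a 3′ UTR match with 4 of the 5 pairs as well, so the search did not separate SLC11A2 from them. Among 10453 measured genes with a transcript, 26 (0.249%) had a match with all 5 pairs in a 5′ UTR and 103 (0.985%) in a 3′ UTR, so these letters are rare without being particular to iron genes. SLC11A2, ACO1, IREB2, NCOA4 and HMOX1 had no match with all 5 pairs in either UTR.

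RNA-seq measured mRNA and Ribo-seq measured ribosome footprints, the mRNA fragments protected by ribosomes. The deposited table held 1 value per group and assay for each gene, in a unit that is not stated. The values fell rather than grew with coding length, so levels are compared between genes on the reading that they are per length. TE (translational efficiency) is the footprint value divided by the RNA value of the same group. With 1 value per group no replicate spread can be given for a level, so the order of neighbouring levels cannot be tested, and RNA and footprint changes are values without a test. The TE change has a test, an adjusted p-value in the authors' deposited table, which the authors named after DESeq2. Whether the replicates were separate cultures is not stated. The number of footprint replicates behind the TE test is not given in the sources used here either, so errors back-calculated from its p-values share that limit. The sample descriptions tie the siCon libraries to RNA-seq and the siIRE1a libraries to Ribo-seq, whereas the table gives both assays for both groups and the multiplexed library holds footprints of both. If the descriptions were right, group and assay could not be told apart in those 4 libraries, which bears on every value compared between the groups. The siIRE1a libraries had 49112701 and 34172898 sequencing clusters and the siCon libraries 28769136 and 31876615, and how many reads lie behind a gene's value is unknown. The targeted gene, ERN1, had an RNA abundance of 0.0736 in siIRE1a cells and 0.121 in siCon cells, with footprints of 0.275 in siIRE1a cells and 0.402 in siCon cells. Of 5 marker genes of the HEK293 line, EYA1, NEFL and GATA3 were measured, and none of 15 erythroid, hepatocyte and macrophage markers was among the measured genes.

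The ferritin chains were the most abundant of the 9 mRNAs and had the lowest TE values in siIRE1a cells. FTH1, the heavy chain that oxidizes iron for storage, had an RNA abundance of 10.2 in siIRE1a cells and 9.25 in siCon cells, at percentiles 98.8 and 98.5 of all genes. Its footprint abundance was 28.2 in siIRE1a cells and 23.8 in siCon cells. Its TE was therefore 2.77 in siIRE1a cells and 2.57 in siCon cells, below the medians of all genes, 4.62 and 4.70. FTL, the light chain that aids formation of the iron core, had an RNA abundance of 6.06 in siIRE1a cells and 4.77 in siCon cells, and a footprint abundance of 10.0 in siIRE1a cells and 8.77 in siCon cells. With a TE of 1.65 in siIRE1a cells and 1.84 in siCon cells, FTL had the lowest TE of the 9 genes in both groups.

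The heavy chain outweighed the light chain, more so in footprints than in RNA. FTH1 over FTL was 2.82 in footprints of siIRE1a cells and 2.71 in those of siCon cells, and 1.68 in RNA of siIRE1a cells and 1.94 in RNA of siCon cells. GENCODE lists 25 pseudogenes of FTH1 and 16 of FTL, and the counting of reads that match several copies is not stated. The ferritin levels, and the TE values and TE percentiles derived from them, are uncertain to that extent.

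SLC40A1 (ferroportin), the exporter that releases iron from cells, was scarce, and its TE was low in siCon cells but less so in siIRE1a cells. Its RNA abundance was 0.0874 in siIRE1a cells and 0.107 in siCon cells, and its footprint abundance was 0.322 in siIRE1a cells and 0.264 in siCon cells. Its TE was 3.68 in siIRE1a cells and 2.48 in siCon cells, so that in siCon cells the genes with a full hairpin match in the 5′ UTR, FTL, SLC40A1 and FTH1, held the 3 lowest TE values of the 9. In siCon cells they stood at percentiles 10.6, 19.5 and 20.8 of all genes, and in siIRE1a cells at 9.56, 38.0 and 24.8. The RNA and footprint values of SLC40A1 were the lowest of the 9 in both groups, so the precision of its TE cannot be given.

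The uptake genes TFRC and SLC11A2 had TE above the median of all genes in both groups, as did ACO1, NCOA4 and HMOX1. TFRC, the receptor that brings iron-loaded transferrin into the cell, had an RNA abundance of 0.779 in siIRE1a cells and 0.949 in siCon cells, and a footprint abundance of 12.4 in siIRE1a cells and 10.99 in siCon cells. Its TE of 15.9 in siIRE1a cells was the highest of the 9, against 11.6 in siCon cells. FTH1 RNA was 13.1-fold more abundant than TFRC RNA in siIRE1a cells and 9.75-fold in siCon cells, while FTH1 footprints were 2.28-fold more abundant in siIRE1a cells and 2.16-fold in siCon cells. SLC11A2, the divalent metal transporter that moves iron out of endosomes, had an RNA abundance of 0.165 in siIRE1a cells and 0.174 in siCon cells, with footprints of 2.15 in siIRE1a cells and 2.19 in siCon cells. Its TE was 13.0 in siIRE1a cells and 12.6 in siCon cells. High TE was not general to iron uptake genes. In a wider list of iron uptake and ferrous iron handling, 13 measured genes had a median TE of 4.97 in siIRE1a cells and 5.14 in siCon cells. The medians of all genes were 4.62 and 4.70.

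The pair of iron regulatory proteins differed in level and in TE. ACO1 had an RNA abundance of 0.207 in siIRE1a cells and 0.199 in siCon cells, with footprints of 2.20 in siIRE1a cells and 2.14 in siCon cells. IREB2 RNA abundance was 0.993 in siIRE1a cells and 1.47 in siCon cells, with footprints of 4.80 in siIRE1a cells and 5.29 in siCon cells. IREB2 RNA was thus 4.79-fold above ACO1 RNA in siIRE1a cells and 7.37-fold in siCon cells, whereas its TE was lower, at 4.84 in siIRE1a cells and 3.61 in siCon cells against 10.6 and 10.8 for ACO1.

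NCOA4, the receptor that delivers ferritin to autophagy and so releases stored iron, had footprints second only to FTH1 among the 9 genes. Its footprint abundance was 16.6 in siIRE1a cells and 18.6 in siCon cells, its RNA abundance 1.86 in siIRE1a cells and 1.83 in siCon cells, and its TE 8.91 in siIRE1a cells and 10.2 in siCon cells. HMOX1, which frees iron from heme, had little RNA, 0.141 in siIRE1a cells and 0.121 in siCon cells, and footprints of 1.18 in siIRE1a cells and 1.66 in siCon cells. Its TE was 8.36 in siIRE1a cells and 13.7 in siCon cells, where it was the highest of the 9. That rank depended on its low RNA value. With a pseudocount of 0.1 the siCon TE of HMOX1 was 7.97, below TFRC (10.6), NCOA4 (9.74) and SLC11A2 (8.37).

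**Figure D1:**
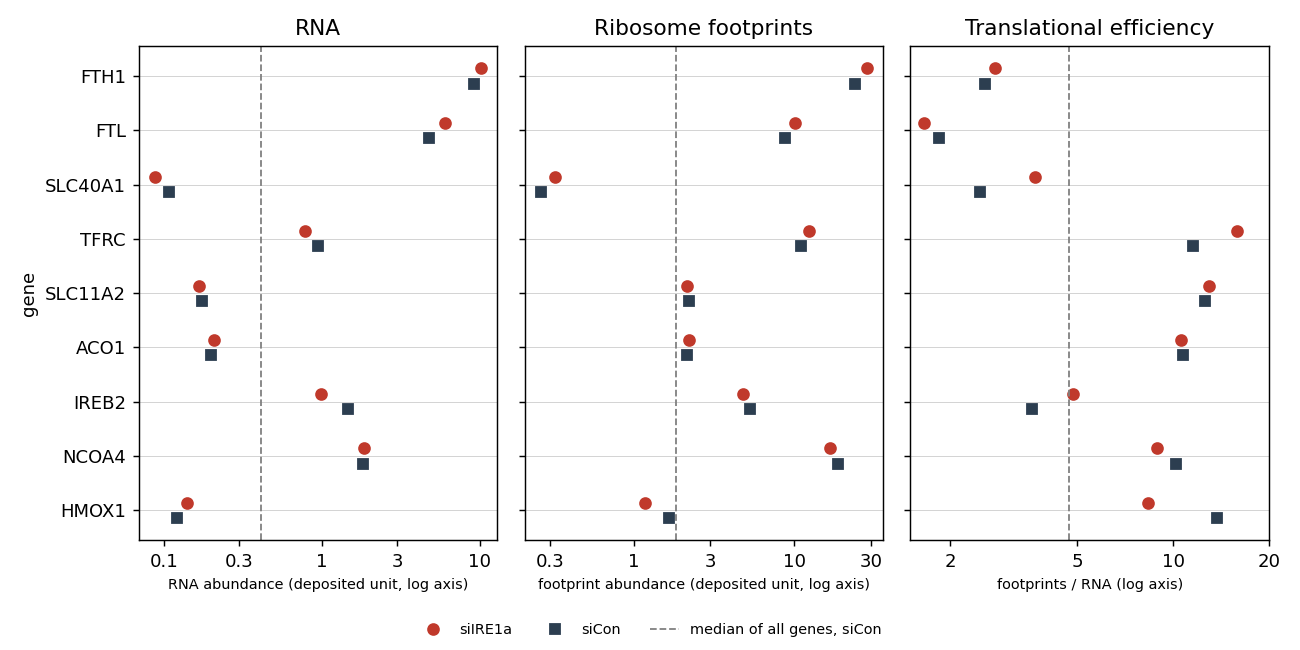
RNA abundance, footprint abundance and TE (horizontal log axes) of the 9 genes in siIRE1a cells (circles) and siCon cells (squares), 1 deposited value per group, with the siCon median of all genes dashed. FTH1 and FTL lie far right in RNA and left of the median in TE, while TFRC, SLC11A2, ACO1, NCOA4 and HMOX1 lie right of the median in TE.

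TE fell with coding length over all genes, so the members were also placed within the same one of 5 equal groups by coding length, a choice made after seeing the data. Spearman's rho between siCon TE and coding length was −0.54 across genes, which are not independent and whose values share the same libraries. The ferritin coding sequences are short, 549 bases for FTH1 and 525 for FTL, and among genes of like length their TE stood at percentiles 6.74 and 1.48 in siIRE1a cells and 5.31 and 1.96 in siCon cells. TFRC, with 2280 coding bases, stood at 99.1 in siIRE1a cells and 97.4 in siCon cells, and ACO1, with 2667, at 98.9 in siIRE1a cells and 99.1 in siCon cells. SLC40A1, with 1713 bases, stood at 34.7 in siIRE1a cells and 14.6 in siCon cells.

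**Figure D2:**
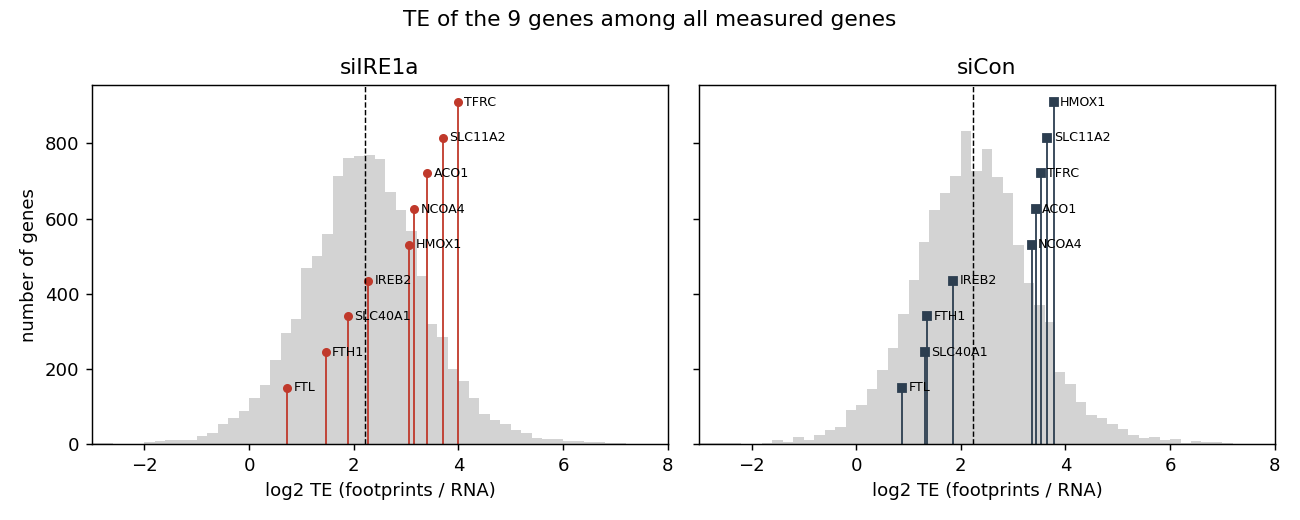
Number of genes (vertical) by log2 TE (horizontal) in siIRE1a cells (left) and siCon cells (right), with the median dashed and the 9 genes marked at their TE; the height of a marker only separates the names. Of the 9, FTL is leftmost in both groups, TFRC is rightmost in siIRE1a cells and HMOX1 is rightmost in siCon cells.

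The comparison between the siRNA groups asked how translation after serum differed with siRNA against IRE1α. Of the 9 genes, 7 had an adjusted p-value in the authors' deposited table, and 2 of them, TFRC and IREB2, passed an adjusted p of 0.05, both with higher TE in siIRE1a cells. Of all 8878 tested genes 10.5% passed, 5.90% with higher and 4.62% with lower TE. In the authors' deposited table the TE of TFRC rose by 0.48 on the log2 scale (1.40-fold, adjusted p = 0.00953). Its standard error, back-calculated from that p-value, was 0.13. The TE of IREB2 rose by 0.44 (1.35-fold, adjusted p = 0.0140) in the authors' deposited table, with a back-calculated standard error of 0.13.

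The same call came with different movements of RNA and footprints. For IREB2 the RNA abundance was 1.48-fold lower in siIRE1a cells (log2 −0.56, percentile 7.58 of all RNA changes), while its footprint change of −0.14 was near the median of all genes, −0.08. For TFRC the RNA change was −0.28 (percentile 24.3) and the footprint change 0.17 (percentile 88.9), so that the values moved in opposite directions. With the GC trend subtracted the RNA changes were −0.20 for IREB2 and −0.049 for TFRC.

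TE changes in this series moved with the GC content of the transcript, with a Spearman's rho of −0.71 across tested genes. For RNA changes the rho with GC content was 0.63, and for footprint changes it was −0.043. Both called mRNAs are poor in GC. IREB2, at 38.3% GC, belongs to the 20% of genes with the lowest GC, where 19.5% of tested genes rose in TE, 0 fell and the median TE change was 0.33. TFRC, at 41.5% GC, belongs to the 20% next in GC, where 6.54% rose and the median was 0.13. With the GC trend subtracted and a normal test over all genes repeated with back-calculated standard errors, neither passed. TFRC then had a TE change of 0.28 (adjusted p = 0.432, test repeated over all genes) and IREB2 one of 0.095 (adjusted p = 0.894, test repeated over all genes), and 1.30% of all genes passed.

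**Figure D3:**
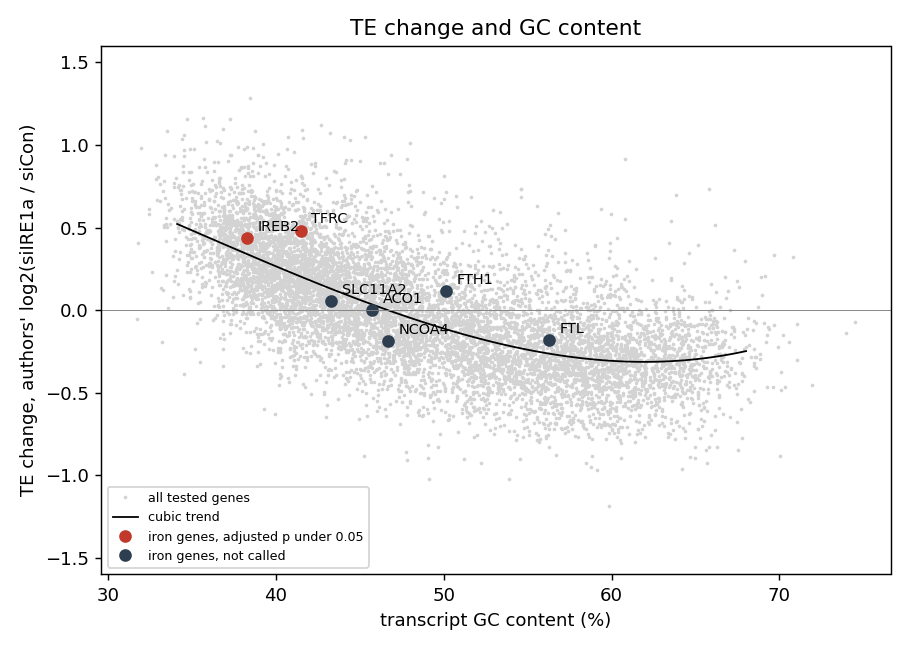
The authors' log2 TE change, siIRE1a over siCon (vertical), against transcript GC content in percent (horizontal) for all tested genes, with the cubic trend as a line and the 7 tested iron genes marked. IREB2 and TFRC lie in the low-GC part of the plot, where the trend itself is above 0, and TFRC lies 0.28 above the line.

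The remaining 5 tested members did not pass. In the authors' deposited table the TE changes were 0.11 for FTH1 (adjusted p = 0.643), −0.18 for FTL (adjusted p = 0.845) and −0.19 for NCOA4 (adjusted p = 0.358). Those of SLC11A2, 0.054 (adjusted p = 0.882), and ACO1, 0.0010 (adjusted p = 0.997), were smaller in the authors' deposited table. SLC40A1 and HMOX1 had log2 changes of 0.60 and −0.72 but no adjusted p-value in the authors' deposited table, and both were below the other 7 genes in RNA abundance. The median TE change was 0.054 over the 7 tested members and −0.031 over all tested genes.

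Footprints, which count ribosomes without dividing by RNA, were higher in siIRE1a cells for 5 of the 9 genes, while 32.1% of all genes were above 0. RNA was above 0 for 5 of the 9 as well, while 48.8% of all genes were. With the GC trend subtracted the RNA change of HMOX1 turned from 0.21 to −0.0099 and that of SLC11A2 from −0.072 to 0.092. The footprint changes were 0.25 for FTH1, 0.19 for FTL, 0.29 for SLC40A1 and 0.17 for TFRC. These are the 4 genes with a full hairpin match, a grouping made after the values were seen, and they lay between percentiles 88.9 and 94.5 of all footprint changes. ACO1 was also above 0, at 0.039. The footprint changes of SLC11A2 (−0.027), IREB2 (−0.14), NCOA4 (−0.17) and HMOX1 (−0.50) were below 0, and that of HMOX1 lay at percentile 1.82. That of SLC11A2 was above 0 with median centring (0.055), quantile normalization (0.053) or the GC trend subtracted (0.034), while the signs of the other 8 genes were kept under these. Over all genes with a full match, the median footprint change was −0.092 for the 26 with one in a 5′ UTR. It was −0.060 for the 103 with one in a 3′ UTR, against −0.082 for all genes. Which of these matches act as iron responsive elements was not tested.

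RNA of both ferritin chains was higher in siIRE1a cells, with changes of 0.14 for FTH1 and 0.34 for FTL, so ferritin footprints and ferritin RNA moved the same way. After subtraction of the GC trend the RNA changes were 0.076 for FTH1 and 0.14 for FTL, and the footprint changes 0.31 and 0.26. SLC40A1, the scarcest of the 9 mRNAs, had an RNA change of −0.29, opposite to its footprints. That RNA change was −0.089 with the GC trend subtracted and −0.14 with a pseudocount of 0.1. NCOA4 had an RNA change of 0.030.

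**Figure D4:**
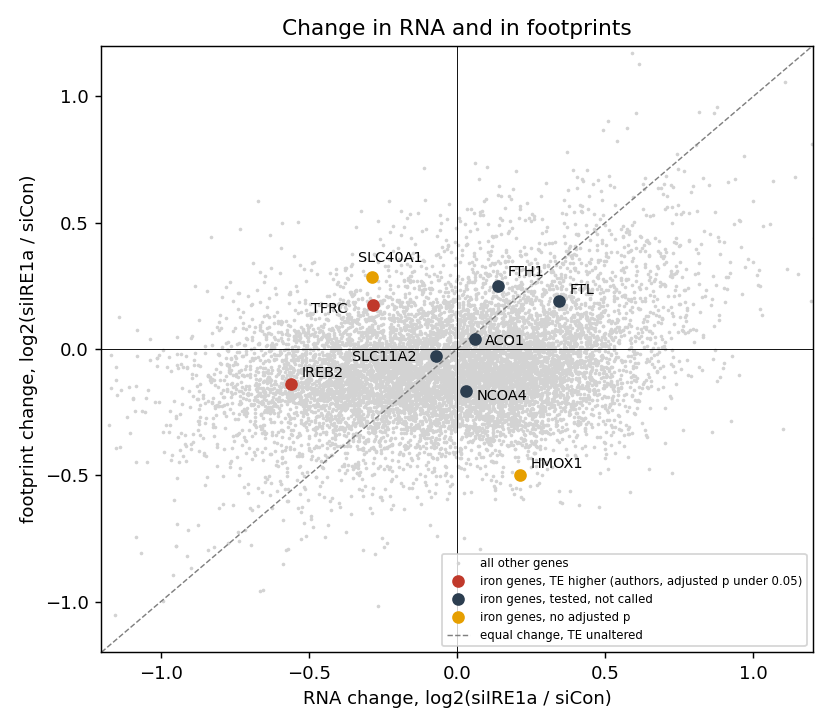
Footprint change (vertical) against RNA change (horizontal), both as log2 of siIRE1a over siCon, for all genes in grey and the 9 iron genes coloured by the authors' TE test; 38 genes lie outside the axes. FTH1 and FTL lie in the upper right quadrant, TFRC and SLC40A1 in the upper left, and HMOX1 lies lowest of the 9.

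Other genes of iron biology were described from 7 lists, in which 97 of 121 genes were measured and 86 tested. By the adjusted p of the authors' deposited table, 7 of them rose in TE and 4 fell, 12.8% of those tested, close to the 10.5% of all tested genes. From the list of other mRNAs reported with an iron responsive element, EPAS1, the hypoxia factor HIF-2α, had TE values of 2.06 in siIRE1a cells and 2.16 in siCon cells, and the kinase gene CDC42BPA 1.42 in siIRE1a cells and 1.19 in siCon cells. Their changes of −0.068 (adjusted p = 0.851) and 0.28 (adjusted p = 0.281) did not pass in the authors' deposited table. CDC14A, a phosphatase gene with a TE of 3.06 in siIRE1a cells and 2.04 in siCon cells, had no adjusted p-value.

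The list of iron-sulfur cluster assembly held 3 of the 7 rises and 1 of the 4 falls, among 24 tested genes. That is 16.7% called, beside 10.5% of all tested genes. With the GC trend subtracted, an alternative chosen for the lists after seeing the data, 3 of the 24 passed, while 1.30% of all genes did. The lists were chosen with earlier results of these data known, and whether this list stands apart was not tested. FAM96A, a targeting factor of the cytosolic assembly pathway that is known to act on ACO1, rose by 1.08 in the authors' deposited table (adjusted p = 0.00282), with an RNA abundance of 0.450 in siIRE1a cells and 0.808 in siCon cells. GLRX5, the glutaredoxin that passes on new clusters, rose by 0.68 in the authors' deposited table (adjusted p = 0.0226), with RNA at 0.517 in siIRE1a cells and 0.821 in siCon cells. Footprints of both genes moved less, at 2.80 in siIRE1a cells and 2.39 in siCon cells for FAM96A and 4.66 in siIRE1a cells and 4.60 in siCon cells for GLRX5. FDXR, the ferredoxin reductase, fell by 0.78 in the authors' deposited table (adjusted p = 0.0365). Unlike TFRC and IREB2, FAM96A and GLRX5 also passed with the GC trend subtracted (adjusted p = 0.0353 and 0.00460, test repeated over all genes), while FDXR did not (adjusted p = 0.557, test repeated over all genes). The median TE change of the list was −0.13.

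Among 13 tested genes of iron regulatory protein control and ferritin breakdown, PIK3C3, the lipid kinase of autophagy, and RB1CC1, a scaffold of the autophagy-initiating kinase complex, rose in the authors' deposited table, by 0.72 (adjusted p = 0.0104) and 0.53 (adjusted p = 0.0376). With the ratio of the deposited TE columns in place of the authors' change, RB1CC1 did not pass (adjusted p = 0.0571, test repeated over all genes). TAX1BP1, an autophagy receptor that takes part in NCOA4 and ferritin turnover, changed by 0.40 (adjusted p = 0.104) in the authors' deposited table and did not pass, nor did RBX1, a subunit of cullin ligases, at 0.27 (adjusted p = 0.316). Of 10 tested genes of iron uptake, SLC39A8, a zinc and iron importer, rose by 0.52 in the authors' deposited table (adjusted p = 0.0349). Not passing in the authors' deposited table were LRP1, an endocytic receptor that takes up heme bound to hemopexin (−0.39, adjusted p = 0.113), and the mitochondrial iron importers SLC25A28 (−0.58, adjusted p = 0.143) and SLC25A37 (−0.62, adjusted p = 0.164). LRP1 RNA abundance was 0.799 in siIRE1a cells and 0.348 in siCon cells, and its footprints were 2.61 in siIRE1a cells and 1.48 in siCon cells.

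Of 14 tested genes of heme metabolism, UROD, an enzyme of heme synthesis, and BLVRB, a biliverdin reductase, fell in the authors' deposited table, by 0.62 (adjusted p = 0.0124) and 0.69 (adjusted p = 0.0334). HMOX2, the constitutive heme oxygenase, and ALAS1, the first enzyme of heme synthesis, did not pass in the authors' deposited table, with changes of −0.39 (adjusted p = 0.184) and −0.40 (adjusted p = 0.177). Of 15 tested NRF2 and ferroptosis genes GCLM, a subunit of the glutathione-synthesizing ligase, rose by 0.66 in the authors' deposited table (adjusted p = 0.0275). KEAP1, which marks NRF2 for degradation (−0.46, adjusted p = 0.0837), and BACH1, the heme-sensing repressor of HMOX1 (0.40, adjusted p = 0.130), did not pass in the authors' deposited table. None of the 7 tested genes of oxygen sensing by iron-dependent hydroxylases passed. P4HA2, a collagen hydroxylase (−0.37, adjusted p = 0.215), and EGLN1, the main HIF hydroxylase (0.39, adjusted p = 0.234), had the smallest adjusted p-values of that list in the authors' deposited table, followed by VHL, which marks HIF for degradation (0.29, adjusted p = 0.333), and ARNT, the HIF partner (−0.27, adjusted p = 0.393). Outside iron-sulfur cluster assembly, none of these listed genes passed with the GC trend subtracted.

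Likeness of pattern was measured as the Euclidean distance over log2 RNA change, log2 footprint change and log2 siCon TE, among genes with an adjusted p-value and a mean RNA abundance of at least 1. These 3 quantities come from 4 values a gene. TFRC itself, with a mean RNA abundance of 0.864, did not reach this minimum, so its neighbours were sought only among more abundant mRNAs. Nearest to FTH1 were TNFRSF1A (distance 0.035), RNF5 (0.14) and TTC17 (0.14). Nearest to FTL were FOSL1 (0.10) and TMEM259 (0.12), and nearest to TFRC were ATP6AP2 (0.17), TMEM30A (0.19) and SEPP1 (0.21). TMEM30A, picked by this likeness to TFRC, had footprints of 25.3 in siIRE1a cells and 20.04 in siCon cells. Its RNA abundance was 1.43 in siIRE1a cells and 1.83 in siCon cells.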

How the data were processed

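Per the submitters' processing notes, reads were aligned with Bowtie 1.1.2 to hg19 (GRCh37). The counter, the annotation and the way replicates were combined are not given in the sources used here. The authors deposited 1 RNA and 1 footprint abundance value per group and gene, in an unstated unit, TE as the ratio of the 2, and a table, named after DESeq2, of log2 changes in TE with adjusted p-values. A deposited run summary gave cluster counts and mean base quality scores (35.86 to 36.03) for the 4 titled libraries. The sample descriptions call the siCon libraries RNA-seq and the siIRE1a libraries Ribo-seq, while the tables hold both assays for both groups. Groups came from the titles and assays from the column names.

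Of 10522 entries, 9 symbols with 2 entries each were left out. Changes are log2 of siIRE1a over siCon with no pseudocount. Raw p-values and standard errors were back-calculated from the deposited adjusted p-values, assuming two-sided normal tests with Benjamini-Hochberg adjustment. Where the raw p was 0.5 or more, retests used the median standard error of genes of like RNA abundance (20 bins). The GC trend was a polynomial of degree 3, and this step was tested on simulated data. Transcripts came from GENCODE 29, with 10453 genes (99.5%) matched by symbol, and 265 of these by a synonym.

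The genes, lists and alternatives were chosen with earlier results of these data known. Named by rule were the 9 members, ERN1 and XBP1, up to 4 genes per list with the smallest adjusted p, all measured genes of the first list and the 3 nearest to FTH1, FTL and TFRC; some genes the rule names are not reported here. XBP1, the mRNA spliced by IRE1α, changed in TE by −0.048 in the authors' deposited table, with an adjusted p of 0.912, and ERN1 by 0.14, with an adjusted p of 0.807. Python 3.11.15, numpy 2.4.6, pandas 2.3.3, scipy 1.17.1 and matplotlib 3.10.9 were used.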

Additional observations from a re-analysis of the deposited data

How the results depend on the processing

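The count of 2 members called for TE stayed at 2 with the ratio of the TE columns, with median centring and at an adjusted p of 0.1, was 1 at an adjusted p of 0.01 (TFRC) and 0 with the GC trend subtracted. The 11 calls over the lists became 2 where mean RNA abundance had to reach 1, where fewer genes were tested, and 3 with the GC trend subtracted, an alternative chosen after seeing the data. The median RNA change of the 9 members was 0.030 as reported, 0.010 with a pseudocount of 1, 0.042 with median centring, 0.092 with quantile normalization and 0.074 with the GC trend subtracted. Their median footprint change was 0.039 as reported, 0.027 with a pseudocount of 1, 0.12 with median centring or quantile normalization and 0.10 with the GC trend subtracted. The median TE percentile of the members was 78.7 in siIRE1a cells and 84.6 in siCon cells. It was 69.1 in siIRE1a cells and 82.5 in siCon cells with a pseudocount of 0.1. Within the same one of 5 equal groups by coding length, chosen after seeing the data, it was 85.4 and 92.1. With all 9 members ranked against mRNAs whose mean abundance reached 1, it was 74.6 in siIRE1a cells and 79.9 in siCon cells. Only 4 of the 9, FTH1, FTL, IREB2 and NCOA4, reached 1 themselves. Their percentiles in that ranking were 21.9, 10.2, 46.3 and 77.3 in siIRE1a cells. In siCon cells they were 19.1, 10.9, 30.5 and 79.9. Without demanding stem pairs, 1875 genes held the loop pattern in a 5′ UTR and 4601 in a 3′ UTR, since the pattern is then less strict. Values of genes that had not passed turned sign for ACO1 (−0.020 with the ratio of the TE columns), FOSL1 (0.024 with median centring) and, with the GC trend subtracted, for ACO1 (−0.034), EPAS1 (0.12), FOSL1 (0.30), FTL (0.080), SEPP1 (−0.014), SLC11A2 (−0.075) and XBP1 (0.065). The cause was not tested. No paired analysis was possible because the tables hold 1 value per group and assay, and for the same reason no replicate could be left out. The number of reads behind each value is unknown, so the precision of the low values, those of SLC40A1, HMOX1, SLC11A2 and ERN1, cannot be given. The RNA change of ERN1, the targeted gene, was −0.72, and −0.35 with a pseudocount of 0.1.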

Other observations

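The standard error implied for the TE change of FTL was large. It was 0.49 when back-calculated from the authors' deposited table, the highest of the 444 tested genes of like RNA abundance, whose median was 0.14. That of FTH1 was 0.14. The raw p behind the FTL value was 0.711, above the limit of 0.5 past which back-calculated errors were replaced by the median of like genes, so the retests used 0.14 for FTL and the value of 0.49 is a description. Replicate values of FTL are not in the tables used here, so which library or assay the spread lies in was not tested.

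As a set, the 26 genes with a full hairpin match in a 5′ UTR did not share the low siCon TE of FTH1, FTL and SLC40A1, which are among the 26. The median TE of the 26 was 4.20 in siIRE1a cells and 4.85 in siCon cells, against 4.62 and 4.70 for all genes. Of the 26, 12 lay below the siCon median, those 3 included. Which of the 26 matches act as iron responsive elements was not tested.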
